A study of Homo sapiens with 6 samples.

Results

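Expression of 83 protein-coding entries of chromosome 18 was compared between the human lung adenocarcinoma line PC9 and its gefitinib-resistant derivative PC9-GR. The entries are those of the deposited table whose locus lies on chromosome 18 and whose type is given as protein coding. Genes with a symbol that starts with ZNF or SLC were left out (6 entries), as were MYO5B, CDH2 and DSG3, which leaves 83 of the 92 coding entries of the chromosome and 83 of the 1705 genes of the table. The 83 entries carry 82 symbols, since IER3IP1 is listed under both ENSG00000134049 and ENSG00000267228.

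PC9 carries a deletion in exon 19 of EGFR, the receptor kinase that gefitinib inhibits, and both lines share it. PC9-GR was selected with rising gefitinib from 0.5 to 10 µM and kept at 10 µM, and it grew without the drug for 7 days before RNA extraction. Each line gave 3 libraries of total RNA from independent cultures, made with a strand-specific Agilent kit. All PC9-GR libraries come from 1 derivative line, so they replicate the culture and not the selection.

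The genes were selected on the same contrast that is described here. In the authors' deposited table no gene has a log2 ratio nearer to 0 than 1.00 or a p-value over 0.0497, and genes on the other side of these limits were not analysed here. All differences below are therefore descriptions of chosen genes, given without a test. RBFA, which helps to mature the small subunit of the mitochondrial ribosome, lay nearest to the limit among the 83, with a log2 ratio of -1.01 in the authors' deposited table. TMX3 followed with -1.04 in the authors' deposited table.

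Chromosome 18 is one of the gene-poor human chromosomes. Its long arm holds SMAD2 and SMAD4, the intracellular carriers of TGF-beta signals, the cell death regulator BCL2, and a cluster of clade B serpins, which are mostly intracellular protease inhibitors. Loss of that arm is a known event in epithelial tumours, above all in those of the colon and pancreas, and SMAD4 is a tumour suppressor there. The other genes range from those that most cells need, for translation, secretion or mitochondrial ATP synthesis, to genes known from particular tissues.

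Promoter sequences are shown for 2 pairs of neighbouring genes that lay on opposite sides of the comparison. They hold 2 of the 5 exceptions to the common direction and were picked for their position. ALPK2, an alpha-type protein kinase, was higher in PC9-GR, and the next entry MALT1, a paracaspase of NF-kappaB signalling, was lower. SERPINB4 was higher and SERPINB5 (maspin) was lower, and both belong to the serpin cluster. Each sequence runs from 250 bases before to 50 bases after the start of transcription in RefSeq (GRCh38.p14), 5′ to 3′ on the gene's strand, and capitals mark every CG. The ALPK2 sequence lies at chr18:58629042-58629341 on the minus strand and the MALT1 sequence at chr18:58671215-58671514 on the plus strand. The SERPINB4 sequence lies at chr18:63644207-63644506 on the minus strand and the SERPINB5 sequence at chr18:63476708-63477007 on the plus strand.
ALPK2: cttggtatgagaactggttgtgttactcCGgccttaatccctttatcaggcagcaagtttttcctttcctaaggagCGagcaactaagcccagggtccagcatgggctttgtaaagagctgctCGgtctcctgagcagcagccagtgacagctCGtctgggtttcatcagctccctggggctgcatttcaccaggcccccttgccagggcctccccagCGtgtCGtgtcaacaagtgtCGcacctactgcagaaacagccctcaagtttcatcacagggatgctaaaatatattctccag
MALT1: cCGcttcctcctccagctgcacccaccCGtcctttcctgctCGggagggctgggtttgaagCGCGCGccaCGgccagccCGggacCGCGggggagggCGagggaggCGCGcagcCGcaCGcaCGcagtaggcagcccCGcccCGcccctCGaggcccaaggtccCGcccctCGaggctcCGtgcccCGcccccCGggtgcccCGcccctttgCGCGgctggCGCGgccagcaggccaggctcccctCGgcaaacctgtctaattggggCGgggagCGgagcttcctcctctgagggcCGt
SERPINB4: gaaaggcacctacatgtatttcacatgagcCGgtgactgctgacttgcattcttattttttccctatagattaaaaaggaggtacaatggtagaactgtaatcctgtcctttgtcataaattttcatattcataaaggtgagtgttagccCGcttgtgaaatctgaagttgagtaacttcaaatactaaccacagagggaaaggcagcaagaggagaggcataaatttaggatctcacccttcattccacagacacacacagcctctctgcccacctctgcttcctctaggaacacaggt
SERPINB5: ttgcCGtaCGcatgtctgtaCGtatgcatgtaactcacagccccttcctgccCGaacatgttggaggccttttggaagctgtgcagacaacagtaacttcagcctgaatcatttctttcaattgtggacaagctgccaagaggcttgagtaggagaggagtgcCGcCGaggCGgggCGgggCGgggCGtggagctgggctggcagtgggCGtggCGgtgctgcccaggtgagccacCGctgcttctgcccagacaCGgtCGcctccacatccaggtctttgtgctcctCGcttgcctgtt
ALPK2 has 7 CG in these 300 bases and MALT1 has 33. SERPINB4 has 2 and SERPINB5 has 16. A RefSeq promoter was found for 71 of the 82 symbols. For a gene with several promoters the highest number of CG was taken, so genes with more promoters tend to count higher. The median of these numbers was 29 in the 66 lower genes (quartiles 24 and 37) and 24 in the 5 higher genes. It was 24 over all 15842 coding genes of the promoter table. The 3 higher genes not printed have 24 (CABYR), 25 (CCBE1) and 31 (PSTPIP2). A lower neighbour of each has 41 (GAREM), 31 (LMAN1) and 23 (ATP5A1). PSTPIP2 thus has more CG than ATP5A1, opposite to the printed pairs, so the printed pairs do not stand for all 5. The letters TATAAA, searched on both strands, occur in the promoters of 8 of 66 lower genes (12.1%), in 1 of 5 higher genes (CABYR), and in 12.4% of all coding genes of the promoter table, each gene counted once if any of its promoters holds them. None of the 4 printed sequences holds them.

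Of the 83 entries, 78 were lower in PC9-GR and 5 were higher, by the ratio of mean FPKM (fragments mapped to a transcript, scaled to its length and to the depth of the library). The lower share was 94.0%, and over all 1705 genes of the table it was 48.9%. Every PC9-GR library lay under every PC9 library for 76 of the 83 entries, which was so for 46.6% of the table. Every PC9-GR library lay above every PC9 library for 4 entries, which was so for 48.3% of the table. Since the table was chosen on this contrast, nothing is read from these shares beyond the counts. The groups overlapped for 3 entries, namely SERPINB4, RP11-41O4.1 and the second IER3IP1 entry. In bulk RNA, fewer cells that express a gene and less RNA per cell cannot be told apart.

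Within the limit on the ratio that chose the genes, the lower genes were lower by similar amounts. For the 76 of them with a ratio, the PC9-GR mean was 37.9% of the PC9 mean at the median. On the log2 scale that is a median of -1.40, with quartiles of -1.64 and -1.25. The PC9-GR mean was between 40% and 50% of PC9 for 26 genes, between 30% and 40% for 34, and between 20% and 30% for 12. It was under 20% for 3 genes (HMSD, MOCOS and RAB27B) and above 50% for 1 (TMX3). The limit on the ratio cuts this range on the side near 50%. No ratio was formed for SERPINB2 and the second IER3IP1 entry, which were at the floor of the table (0.001 FPKM) in all 3 PC9-GR libraries.

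The same shift showed in each library. The FPKM of the 83 entries summed to 3471, 3580 and 3845 in the PC9 libraries and to 1344, 1310 and 1460 in the PC9-GR libraries. The entry at the median stood at 37.1%, 37.8% and 39.5% of its PC9 mean in the 3 PC9-GR libraries. The 83 entries made up 12.02% to 12.6% of all listed FPKM in PC9 and 7.70% to 8.53% in PC9-GR. Relative to the mean, the SD between libraries had a median over the entries of 9.82% in PC9 and 11.2% in PC9-GR, and 58 entries were under 20% in both. The limits on the ratio and the p-value that chose the genes favour an SD that is small beside the gap between the lines. The same numbers over the whole table are not given here, so nothing more is read from them.

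**Figure D1:**
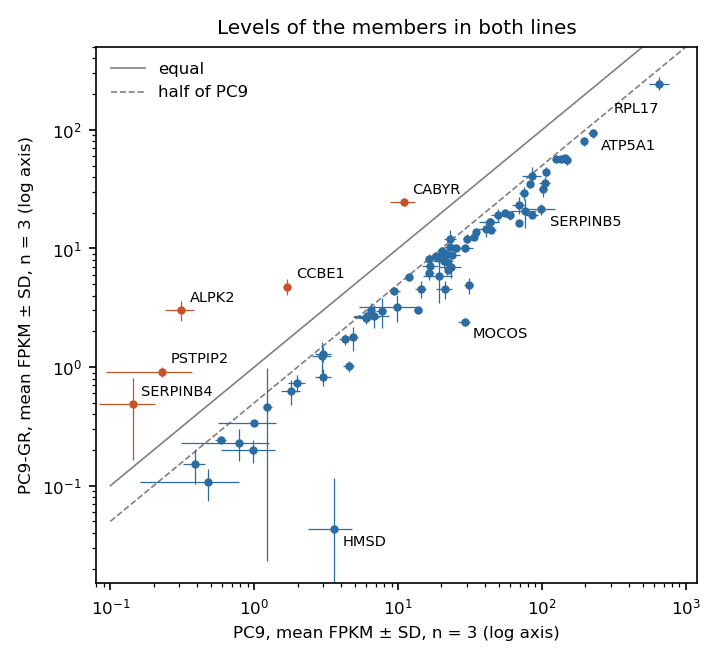
Mean FPKM of each entry in PC9 (horizontal, log axis) and PC9-GR (vertical, log axis) with SD over 3 libraries; blue entries were lower and orange entries higher in PC9-GR, and the lower bar of HMSD runs off the axis. All blue points but that of TMX3 lie under the dashed line at 50% of PC9, from about 0.4 to 655 FPKM. The 5 orange points lie above the line of equal levels. The limit on the ratio that chose the genes keeps the points away from that line. The 2 entries without a ratio are not drawn.

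The median log2 ratio of the lower genes varied little with the level in PC9. The limit on the ratio that chose the genes narrows the range open to these medians at every level, so nothing is read from their evenness. PC9 means ranged from 0.144 to 655 FPKM with a median of 20.1. The 20 entries at 50 FPKM or more in PC9 were all lower, with a median log2 ratio of -1.41. The 33 entries from 10 to 50 FPKM held 32 lower genes (median -1.39) and CABYR. All 15 entries from 2 to 10 FPKM were lower (median -1.31). Of the 15 entries under 2 FPKM, 11 were lower (median -1.52 over the 9 with a ratio) and 4 were higher. Sorting by the level in PC9 favours lower genes among the abundant entries, so nothing is read from these counts by direction.

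The genes of translation and RNA processing include the most abundant of the set, and all 8 were lower, with a median log2 ratio of -1.31. RPL17, a protein of the large ribosomal subunit, measured 635, 562 and 768 FPKM in PC9 and 236, 222 and 281 FPKM in PC9-GR. Its means were 655 ± 104 and 246 ± 30.6 FPKM (SD, n = 3), a 2.66-fold lower level, and the groups were well apart. RPL17 shares its locus with C18orf32 and with the read-through entry RPL17-C18orf32 (149 ± 8.14 against 56.0 ± 5.83 FPKM), and how reads were divided between the 3 is uncertain. NARS, which charges tRNA with asparagine, measured 200, 202 and 190 FPKM in PC9 and 78.2, 74.5 and 88.3 FPKM in PC9-GR. TXNL4A, a component of the U5 particle of the spliceosome, was at 137 ± 8.69 and 56.7 ± 2.63 FPKM. RBFA had the smallest difference of the group, with 11.9 ± 0.489 against 5.70 ± 0.384 FPKM.

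Both genes of the mitochondrial list were lower. ATP5A1, the alpha subunit of ATP synthase, measured 211, 221 and 243 FPKM in PC9 and 83.5, 97.1 and 99.8 FPKM in PC9-GR. The PC9-GR mean was 41.5% of the PC9 mean, and the lowest PC9 library was above the highest PC9-GR library. ACAA2, a thiolase of mitochondrial fatty acid oxidation, was at 43.4 ± 6.73 and 16.7 ± 1.09 FPKM, and its locus in the table overlaps that of RP11-886H22.1.

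The 12 entries of membrane traffic and lipid transport were all lower, with a median log2 ratio of -1.43 over the 11 with a ratio. LMAN1, a cargo receptor between the endoplasmic reticulum and the Golgi, measured 127, 121 and 126 FPKM in PC9 and 57.2, 54.0 and 60.1 FPKM in PC9-GR. SEC11C, a catalytic subunit of the signal peptidase that trims secreted proteins, was lower by more: 60.1, 78.1 and 90.4 FPKM in PC9 against 20.7, 15.0 and 26.1 FPKM in PC9-GR. Its libraries spread more than those of LMAN1, and the groups did not overlap. VPS4B, the ATPase that recycles the ESCRT membrane-scission machinery, was at 55.5 ± 0.640 and 20.1 ± 1.46 FPKM. RAB27B, a small GTPase of exocytosis and exosome release, measured 32.6, 28.7 and 31.4 FPKM in PC9 and 4.17, 4.77 and 5.72 FPKM in PC9-GR, a 6.33-fold lower level. At the other end of the list TMX3, an oxidoreductase of the endoplasmic reticulum, kept 52.2% of its PC9 mean (23.02 ± 2.06 against 12.03 ± 2.20 FPKM). IER3IP1 (ENSG00000134049), a small protein of the endoplasmic reticulum, was at 69.4 ± 7.29 and 23.3 ± 3.73 FPKM. The second IER3IP1 entry (ENSG00000267228) was at 0.001, 0.736 and 2.37 FPKM in PC9 and shares its locus with the first, so its values are uncertain.

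The list of metabolic enzymes had the lowest median log2 ratio of the 14 lists, -2.08 over 7 genes, all of them lower. This rank depends on which genes the list holds. The enzymes ME2 (log2 ratio -1.36) and KDSR (-1.34) are in no list. CYB5A, CNDP2 and ZADH2 lie in 1 stretch of the chromosome, described below. MOCOS, which adds sulphur to the molybdenum cofactor that xanthine dehydrogenase needs, measured 31.9, 28.8 and 26.2 FPKM in PC9 and 2.40, 2.22 and 2.62 FPKM in PC9-GR. This 12.01-fold lower level (28.99 ± 2.85 against 2.41 ± 0.203 FPKM) was tight in both groups. CNDP2, a cytosolic dipeptidase, was at 78.0, 95.2 and 82.0 FPKM in PC9 and 19.8, 17.8 and 19.3 FPKM in PC9-GR. CYB5A, the membrane-bound electron carrier cytochrome b5, was at 71.3, 67.4 and 70.5 FPKM in PC9 and 16.3, 16.4 and 16.8 FPKM in PC9-GR, so PC9-GR kept 23.7% of its PC9 level. ZADH2, a reductase of the zinc-binding alcohol dehydrogenase family, was at 21.0 ± 2.67 and 4.57 ± 0.787 FPKM. GALNT1, which starts mucin-type O-glycosylation, was nearer to the bulk of the chromosome, with 107 ± 0.569 against 44.2 ± 4.11 FPKM. LIPG and HDHD2 complete the list.

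**Figure D2:**
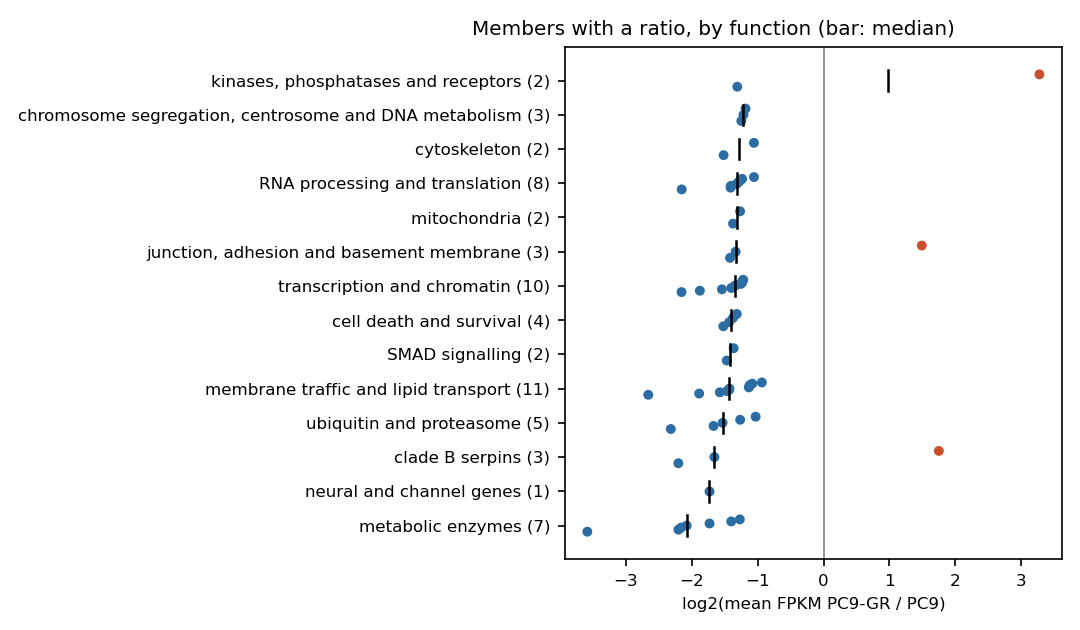
Log2 ratio of mean FPKM in PC9-GR to PC9 for each gene with a ratio, grouped by function, with the number of such genes in brackets and a black bar at the median. In 11 of 14 groups every point lies left of 0, and the metabolic enzymes have the lowest median (-2.08); the bar of the kinase group falls between 1 lower and 1 higher gene.

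Both SMAD genes were lower. SMAD2, which the TGF-beta receptor phosphorylates, measured 41.1, 35.7 and 45.3 FPKM in PC9 and 14.3, 12.7 and 17.1 FPKM in PC9-GR. SMAD4, the partner that all receptor-regulated SMADs share, measured 37.5, 46.8 and 45.6 FPKM in PC9 and 15.4, 17.9 and 17.2 FPKM in PC9-GR. The PC9-GR means were 36.1% (SMAD2) and 38.8% (SMAD4) of PC9, with no overlap between the groups. The locus of SMAD4 in the table overlaps that of ELAC1.

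All 4 genes of cell death and survival were lower, whichever way they act. BCL2, which blocks mitochondrial cell death, was low in PC9 (2.29, 1.86 and 1.82 FPKM) and lower in PC9-GR (0.678, 0.881 and 0.653 FPKM). MALT1, shown above by its promoter, measured 44.7, 49.2 and 55.6 FPKM in PC9 and 17.1, 18.7 and 21.7 FPKM in PC9-GR. PHLPP1, a phosphatase that acts on AKT, was at 6.77 ± 1.81 and 2.72 ± 0.598 FPKM. TNFRSF11A, the receptor RANK, was at 1.81 ± 0.275 and 0.629 ± 0.149 FPKM. The 4 genes stood at 34.8% to 40.1% of their PC9 means. The loci of MALT1, RAB27B and GAREM each overlap a listed non-coding entry, and no use of strand in counting is stated.

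The 10 genes of transcription and chromatin were all lower, with a median log2 ratio of -1.35. MBD2, which binds methylated CpG, measured 78.7, 85.3 and 82.6 FPKM in PC9 and 35.8, 34.4 and 34.7 FPKM in PC9-GR. RPRD1A, which binds the C-terminal domain of RNA polymerase II, was at 34.7 ± 0.750 and 13.8 ± 1.23 FPKM. ELP2, a subunit of Elongator, was at 21.5 ± 0.541 and 9.01 ± 0.888 FPKM. CXXC1, which binds unmethylated CpG, was at 20.7 ± 3.20 and 7.84 ± 0.929 FPKM. Larger differences came from SETBP1, a binding partner of the SET protein (3.03 ± 0.367 against 0.824 ± 0.136 FPKM), and TSHZ1, a zinc-finger regulator of development (4.53 ± 0.397 against 1.02 ± 0.103 FPKM). INO80C, MBD1, TCF4 and ONECUT2 complete the list.

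All 5 genes of the ubiquitin list were lower (median log2 ratio -1.53). NEDD4L, a ubiquitin ligase known for removing the epithelial sodium channel from the membrane, measured 109, 99.7 and 97.0 FPKM in PC9 and 34.7, 34.8 and 26.5 FPKM in PC9-GR. RNF165, a RING-type ubiquitin ligase, was low in PC9 and spread widely (0.675, 1.45 and 0.845 FPKM), and was at 0.243, 0.192 and 0.159 FPKM in PC9-GR. SOCS6, a suppressor of cytokine and receptor kinase signals, was at 29.3 ± 3.92 and 10.1 ± 0.847 FPKM. PIAS2, a ligase for SUMO, had the smallest difference of the list, with 16.5 ± 1.24 against 8.09 ± 0.848 FPKM.

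Smaller groups held the same direction with few exceptions. The 3 genes listed under chromosome segregation and DNA metabolism were lower: SKA1, a kinetochore protein (2.97 ± 0.446 against 1.25 ± 0.368 FPKM), POLI, a translesion DNA polymerase (6.12 ± 1.29 against 2.63 ± 0.228 FPKM), and CTDP1, which removes phosphate from RNA polymerase II (5.94 ± 0.674 against 2.61 ± 0.297 FPKM). In the cytoskeletal pair, the formin FHOD3 was at 21.9 ± 1.34 and 7.64 ± 1.68 FPKM, and TPGS2, a subunit of the tubulin polyglutamylase, was at 85.5 ± 12.4 and 41.1 ± 7.44 FPKM. These 2 share 1 locus in the table, so their values are uncertain. MBP, which encodes the myelin basic protein and other products, was at 22.1 ± 0.125 and 6.62 ± 0.466 FPKM. GAREM, an adaptor between the EGF receptor and the MAP kinase pathway, was at 4.28 ± 0.418 and 1.72 ± 0.193 FPKM.

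The other genes of adhesion and polarity were lower at low levels. CDH7, a cadherin, measured 1.18, 1.18 and 1.34 FPKM in PC9 and 0.161, 0.164 and 1.06 FPKM in PC9-GR. PC9-GR replicate 3 thus lay close to the PC9 libraries, and without it the log2 ratio of -1.42 became -2.93. PARD6G, a member of the PAR6 polarity family, was at 0.386 ± 0.0682 and 0.153 ± 0.0503 FPKM.

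Of the 4 clade B serpins, 3 were lower and 1 was higher. SERPINB5, an epithelial serpin known as maspin, measured 71.7, 108 and 118 FPKM in PC9 and 21.4, 19.3 and 23.7 FPKM in PC9-GR, a 4.61-fold lower level. SERPINB8, an inhibitor of furin, was at 14.4 ± 1.32 and 4.57 ± 0.770 FPKM. SERPINB2, the urokinase inhibitor PAI-2, was at 0.863, 1.01 and 1.17 FPKM in PC9 and at the floor of the table in all 3 PC9-GR libraries, so it is listed there at 0.001 with no fold. SERPINB4 was the exception and is described with the higher genes. HMSD, a gene within the locus of SERPINB8 whose values are therefore uncertain, was at 2.31, 4.72 and 3.75 FPKM in PC9 and at 0.001, 0.001 and 0.128 FPKM in PC9-GR. Its log2 ratio of -6.38 was the largest in size and rests on PC9-GR replicate 3, since without that library HMSD is at the floor in PC9-GR (a log2 ratio of -11.81 set by the floor alone).

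Of the 18 entries in no list, 16 were lower, with a median log2 ratio of -1.39 over all with a ratio. TXNL1, a thioredoxin-like protein bound to the proteasome, was at 145 ± 8.94 and 57.9 ± 3.84 FPKM and overlaps WDR7 in the table. CCDC68, a centriole protein, was at 13.7 ± 0.886 and 3.02 ± 0.139 FPKM, a 4.54-fold lower level. C18orf25 kept 47.7% of its PC9 mean (18.2 ± 1.60 against 8.68 ± 0.664 FPKM). C18orf32 spread widely (14.8, 19.4 and 23.6 against 3.80, 5.27 and 8.45 FPKM), as did RP11-886H22.1 (5.14, 14.02 and 10.4 against 3.17, 4.04 and 2.42 FPKM), and neither had groups that overlapped. RP11-169F17.1, at 104 ± 9.10 and 35.7 ± 4.11 FPKM, is a processed transcript and not a coding gene in GENCODE 29, and RP11-41O4.1 is a long non-coding RNA there. The authors' deposited q-value was under 0.05 for 78 of the 83 entries. The other 5 are the second IER3IP1 entry, C18orf32, RP11-886H22.1, HMSD and RP11-41O4.1. The limit on the p-value that chose the genes favours low q-values, and the share over the whole table is not given here. Nothing is read from this count about chromosome 18.

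The 5 higher genes were mostly low in PC9: 4 of them were under 2 FPKM there. This is not particular to chromosome 18, since all higher genes of the table had a median of 0.611 FPKM in PC9. ALPK2, whose product is linked to heart development, measured 0.308, 0.241 and 0.386 FPKM in PC9 and 3.09, 2.43 and 3.53 FPKM in PC9-GR. Its mean was 9.68-fold higher (0.312 ± 0.0723 against 3.02 ± 0.557 FPKM), the largest difference among the 5, and the groups did not overlap. Its locus in the table overlaps that of a non-coding entry. CCBE1, a secreted protein that aids the processing of the lymphatic growth factor VEGF-C, measured 1.61, 1.70 and 1.78 FPKM in PC9 and 3.98, 5.07 and 5.29 FPKM in PC9-GR, a 2.81-fold higher level without overlap.

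CABYR was the only higher gene above 2 FPKM in PC9. CABYR encodes a calcium-binding protein of the sperm flagellum that is also found in tumours. It measured 9.51, 13.5 and 9.82 FPKM in PC9 and 24.7, 26.4 and 22.8 FPKM in PC9-GR, a 2.25-fold higher level without overlap.

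PSTPIP2, an F-BAR protein that binds membrane and actin and is known from macrophages, measured 0.172, 0.131 and 0.386 FPKM in PC9 and 0.907, 0.825 and 1.01 FPKM in PC9-GR. The groups did not overlap. The mean was 3.97-fold higher, a log2 ratio of 1.99, and without PC9 replicate 3 the log2 ratio was 2.59. SERPINB4, a squamous cell carcinoma antigen, measured 0.0803, 0.202 and 0.150 FPKM in PC9 and 0.121, 0.715 and 0.615 FPKM in PC9-GR. Here the groups overlapped, since PC9-GR replicate 1 lay within the PC9 range. SERPINB4 is near-identical to SERPINB3, so reads could be shared between them, and its 3.36-fold higher mean is uncertain.

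**Figure D3:**
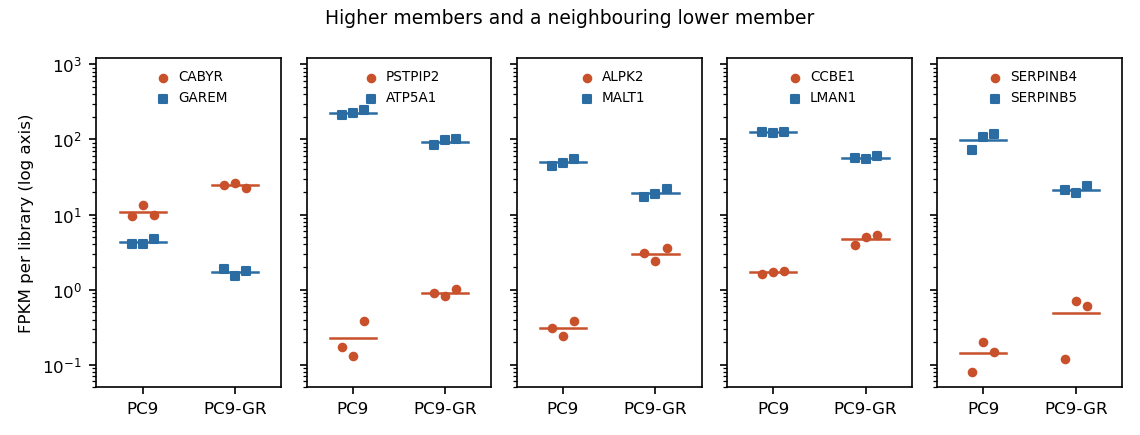
FPKM of each library (points, log axis) in PC9 and PC9-GR for the 5 higher genes (orange circles), each beside a lower gene next to it among the 83 entries (blue squares), with lines at the means. The orange and blue points move in opposite directions in each panel, and only SERPINB4 has overlapping groups.

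Along the chromosome, in the order of the table's positions, whose build is not named, the 78 lower entries formed 5 runs among the 83. CABYR comes first, 7620 kb before GAREM, the next of the 83. The left-out genes CDH2 and DSG3 lie between them and were higher too, so the first 3 coding entries of the chromosome in the table were all higher. The other 7 left-out coding genes were lower and lie within the runs. The first run holds 11 entries from GAREM to SETBP1 (chr18:29598334-42648475), and the second 34 entries from ATP5A1 to NEDD4L (chr18:43664109-56068772). The third holds MALT1, SEC11C and LMAN1, the fourth 8 entries from KIAA1468 to SERPINB5 (chr18:59854490-61172318), and the fifth 22 entries from SERPINB2 to PARD6G (chr18:61538925-78005429). The median log2 ratios of the 5 runs were -1.34, -1.37, -1.38, -1.39 and -1.55.

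The distance from a higher gene to the nearest lower entries varied widely. PSTPIP2 ends 11.9 kb before the locus of ATP5A1 (log2 ratio -1.27) and starts 915 kb after SETBP1 (-1.88). ALPK2 lies 79.7 kb after NEDD4L (-1.67) and 41.5 kb before MALT1 (-1.38). CCBE1 starts 71.0 kb after LMAN1 (-1.13) and ends 2490 kb before KIAA1468 (-1.12). SERPINB4 lies 132 kb after SERPINB5 (-2.20) and 227 kb before SERPINB2. Of the 5, only ALPK2 had a lower entry within 100 kb on both sides.

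**Figure D4:**
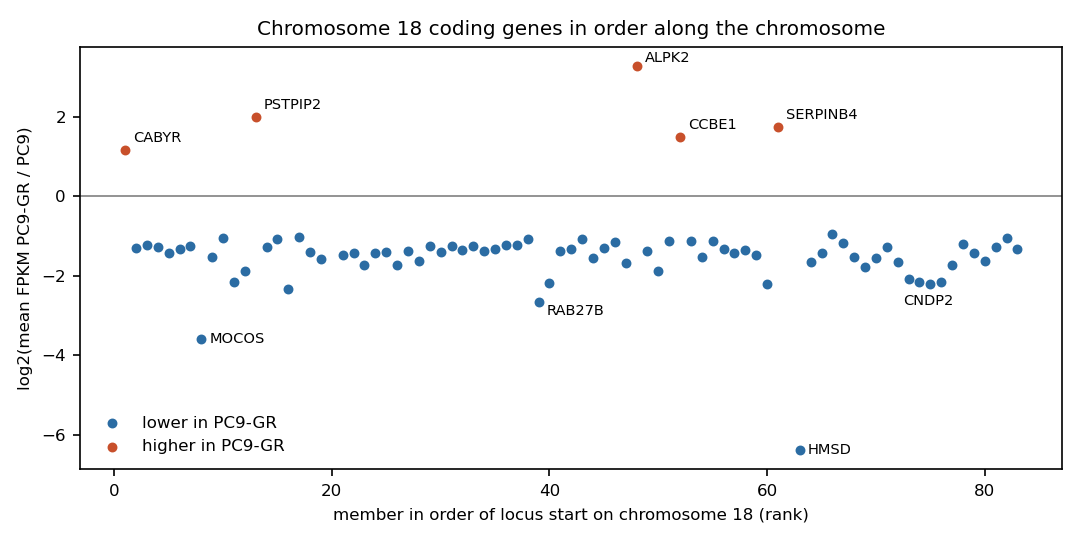
Log2 ratio of mean FPKM in PC9-GR to PC9 (vertical) for the entries in order of their position on chromosome 18 (horizontal, rank from 1 to 83; the 2 entries without a ratio leave gaps). The blue points form a band around the median of -1.40 that dips from CYB5A to TSHZ1, with 5 orange points above 0; CDH2 and DSG3, which were left out, are not drawn.

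Within the fifth run, stretches of entries differed in size of the difference. The 5 entries from CYB5A to MBP (CYB5A, CNDP2, ZADH2, TSHZ1 and MBP; chr18:71920529-74845639) stood at 22.4% of PC9 at the median, with log2 ratios from -2.20 to -1.74. The last 6 entries, from CTDP1 to PARD6G (chr18:77439800-78005429), stood at 40.6%, with log2 ratios from -1.63 to -1.06. In the first run the 5 entries from INO80C to ELP2 stood at 41.4%, and MOCOS, the next of the 83, at 8.32%. RAB27B and CCDC68, which are neighbours, stood at 15.8% and 22.0%. These stretches were picked after their values were seen.

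The table lists a larger share of the coding genes of chromosome 18 than of any other autosome. GENCODE 29 (GRCh38) has 269 coding genes on chromosome 18, and by Ensembl identifier the table lists 90 of them (33.5%), the left-out coding genes included. On the other autosomes it lists 1210 of 18750 coding genes (6.45%), with 13.2% on chromosome 14, the next in order. Chromosome 18 genes that are listed as lower make up 30.9% of its coding genes, against 2.87% on the other autosomes. Those listed as higher make up 2.60%, against 3.58%. CABYR is the first coding entry of the chromosome in the table. A split placed there has none of the 83 coding genes that GENCODE 29 places before CABYR listed, by construction. From CABYR on it is 90 of 186 (48.4%), a share that the placing of the split raises. Nothing is read from this split. The table also lists 3 non-coding entries of the chromosome before CABYR. The other coding genes of the chromosome were not analysed here.

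**Figure D5:**
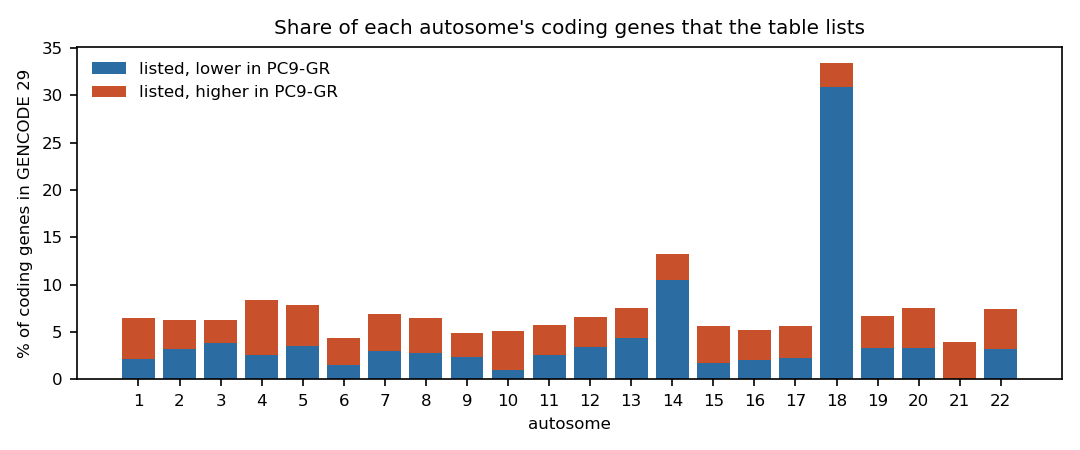
Percent of the coding genes of each autosome in GENCODE 29 that the deposited table lists as lower (blue) or higher (orange) in PC9-GR, stacked. Chromosome 18 reaches 33.5%, chromosome 14 reaches 13.2%, and each of the other autosomes stays under 10%.

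The ratios of the lower chromosome 18 genes spanned a narrower range than those of other listed genes. Elsewhere means here all 1622 listed genes other than the 83 entries. These still include 9 left-out coding and 16 non-coding entries of chromosome 18. The interquartile range of the log2 ratio was 0.391 over the lower chromosome 18 genes and 0.796 over the lower genes elsewhere in the table. Among coding genes of chromosome 14 it was 0.448 (65 of 83 lower, median of these -1.75), and among those of chromosome 3 it was 0.652 (41 of 67 lower, median of these -1.30). No genes were left out by symbol on these 2 chromosomes, unlike on chromosome 18. Of the 9 coding entries left out there, 7 were lower and 2 were higher. The PC9-GR mean was 30% to 50% of PC9 for 78.9% of the lower chromosome 18 genes, for 63.5% of the lower genes elsewhere, and for 46.9% of those on chromosome 14. The chromosome 18 entries were also more abundant, with a median of 20.1 FPKM in PC9 against 1.46 FPKM for all other listed genes. Among genes with at least 10 FPKM in PC9, a limit set after the data were seen, 52 of 53 chromosome 18 entries were lower (98.1%), against 262 of 316 elsewhere (82.9%) and 50 of 54 on chromosome 14 (92.6%). The interquartile ranges there were 0.380, 0.754 and 0.418. The limit acts on the PC9 level alone and so favours lower genes: without it 46.6% of the genes elsewhere were lower. Nothing is read from the lower shares at this limit. No test was made of these differences, because all of these genes were chosen on the same contrast.

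The ratios depend on how the libraries are scaled against each other. Setting the listed genes to equal totals shifted the log2 ratios up by about 0.80, median-ratio scaling shifted them down by about 0.31, and median-ratio scaling without chromosome 18 shifted them down by about 0.68. These shifts are smaller than the limit on the ratio that chose the genes, so counts by direction are fixed by that choice and say nothing about scaling. The size moved, from a median log2 ratio of -1.37 over the 81 entries with a ratio to -0.57, -1.68 and -2.06 in that order.

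The labelled epithelial cell type could not be checked, because none of its 7 fixed markers is in the table. Of 7 haematopoietic markers 6 are listed, 5 of them higher, and their summed level was 20.6 to 24.7 FPKM over the PC9 libraries against 47.2 to 58.3 FPKM over those of PC9-GR. Of 5 fibroblast markers only PDGFRB is listed (0.0661 to 0.143 FPKM against 2.38 to 3.77 FPKM), and none of the 4 endothelial markers. Their part in the results was not tested.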

How the data were processed

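RNA was sequenced from 3 PC9 and 3 PC9-GR libraries. TopHat and Cufflinks were used, per the submitters' processing notes. The sources used here name no version, genome build, annotation or strand setting. The deposited values are FPKM for each library and group, per the file headers. The authors' ratio and its log2 are deposited beside them. The authors' p-value and q-value follow, per the file headers. A deposited score per group, headed as a coefficient of variation, was not used. No counts are given, so the depth of a library is unknown and values carry no counting interval.

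FPKM was used as deposited, without a pseudocount. Ratios are log2 of mean FPKM in PC9-GR over PC9, and 0.001 FPKM was read as the floor. No test was made, because the same libraries chose the genes, and the labels name no batch. At least 1 FPKM in at least 3 libraries was reached by 73 of the 83 entries, and 20 share a locus with another listed gene, where reads cannot be assigned with certainty. The members, the 14 functional lists and the markers were chosen with earlier results of these data known. Named genes are all higher ones, up to 4 of the most abundant per list, the 10 largest and 5 smallest ratios, the 10 most abundant, the ends of runs of 5 or more and the 3 most variable. Other names spell out a list, a count, a stretch or enzymes that are in no list. Of the 83 entries, 81 were coding genes in GENCODE 29 by identifier. Positions are those of the table and were not mixed with GRCh38. Python 3.11.15 with pandas 2.3.3 was used.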

Additional observations from a re-analysis of the deposited data

How the results depend on the processing

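No paired analysis was possible because no result comes from a test. The choice of genes by the size of their ratio in these libraries fixes the direction under the scalings (shifts of about 0.80 at most) and under the authors' log2 ratio, so the 78 lower entries found there show no stability. The count was 70 of the 73 entries that pass the filter on low values, 59 without shared loci, and 52 at 10 FPKM or more in PC9, an alternative chosen after seeing the data. That limit on PC9 favours lower genes. Some entries pass the filter on low values through 1 line only, as BCL2 does through PC9 and ALPK2 through PC9-GR. Entries lower without overlap numbered 64 with equal totals, 78 with either median-ratio scaling, and 76 to 77 with a library left out. The 78 include the second IER3IP1 entry. It is at 0.001 FPKM in PC9 replicate 1 and in every PC9-GR library, and the scaling alone set these floor values apart. With FPKM as deposited, 46.6% of the whole table was lower without overlap. That share is not given here for the alternatives, so nothing is read from their counts about chromosome 18. The median log2 ratio of -1.37 moved to -0.57 (equal totals), -1.68 (median-ratio), -2.06 (median-ratio without chromosome 18) and -1.25 (pseudocount of 1 FPKM), and ranged from -1.43 to -1.32 with a library left out. The cause was not tested. Leaving out a library moved 3 of the 58 named genes with a ratio by over 1.5 times: PSTPIP2, HMSD and CDH7. Without counts, no limit of depth can be given, and genes near the floor are the least certain.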
